A study of Mus musculus with 30 samples.

Results

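The transcripts of 10 Notch pathway genes were followed in cultured mouse cells whose sample titles name the leg, and in which skeletal muscle markers were well measured. They are the ligand genes Dll1 and Jag1, the receptor genes Notch1, Notch2 and Notch3, the target genes Hes1, Hey1 and Heyl, the related gene Hes6 and the inhibitor gene Numb. Members were chosen as all probe sets of a pair of Affymetrix arrays (chips A and B) that the annotation assigns to only 1 of these genes. That gave 19 probe sets for 10 of the 18194 genes with such a probe set, 18 of them on chip A and 1, for Jag1, on chip B. Cultures were sampled at 0, 4, 12, 24 and 48 h, with 3 replicates at each hour, each hybridised to 1 A and 1 B array, 30 arrays in all. The labels give no strain, age, medium or treatment, do not say what happened at 0 h, and do not say whether the replicates were separate cultures or animals, so the p-values measure no more than array-to-array spread, part or all of it possibly technical.

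Notch receptors are membrane proteins that bind Delta and Jagged ligands on neighbouring cells. Binding leads to cleavage of the receptor, and its freed inner part joins the DNA-binding protein Rbpj and switches on repressor genes of the Hes and Hey families. In skeletal muscle the pathway is known for keeping satellite cells and myoblasts undifferentiated, and its activity normally declines as they form myotubes.

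The deposited values are linear intensities that had already been scaled: the mean of each array, without its highest and lowest 2% of probe sets, was 500.1 to 500.2. The array of replicate 3 stood apart at every hour on both chips, which was seen only in the data. Results are therefore given from limma fits over all arrays, from the same fit with a term for replicate 3, and over replicates 1 and 2 alone. Skeletal muscle markers were well measured, with all 10 listed genes among the probe sets tested and a summed intensity of 56610 to 93310 on every array. The summed intensity of 7 endothelial markers was 323.4 to 630.5, with 2 of the 7 bright enough to be tested. Genes of cell division, 5 of 5, were higher in replicate 3 at every hour (summed 12960 to 15900 in replicate 3 against 5163 to 10530 in replicates 1 and 2). A further 8 markers of pericytes and smooth muscle summed to 12490 to 18810 in replicate 3 and to 15660 to 26460 in replicates 1 and 2. Most of that sum came from Acta2 (8121.1 to 17020.4) and Des (3799.4 to 6860.7), and Des is on the skeletal muscle list too. Only 4 of the 8 were bright enough to be tested, and Pdgfrb, Myh11, Kcnj8 and Abcc9 were not.

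Promoter windows are shown for the genes whose probe sets were lower at 48 h than at 0 h in the fit with a replicate 3 term, namely Notch3, Dll1 and Hes6. Each runs from 250 bases before to 50 bases after an annotated start, from RefSeq on GRCm38.p6, and capitals mark CAGCTG, an E-box of the kind that myogenic factors bind.
Notch3, chr17:32166841-32167140, minus strand: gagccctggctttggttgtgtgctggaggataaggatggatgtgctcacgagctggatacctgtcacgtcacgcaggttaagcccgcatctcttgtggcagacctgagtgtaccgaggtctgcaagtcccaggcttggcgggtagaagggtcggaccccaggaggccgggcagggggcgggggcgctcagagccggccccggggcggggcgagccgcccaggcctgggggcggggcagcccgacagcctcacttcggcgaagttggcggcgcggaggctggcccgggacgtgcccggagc
Dll1 window 1, chr17:15375774-15376073, minus strand: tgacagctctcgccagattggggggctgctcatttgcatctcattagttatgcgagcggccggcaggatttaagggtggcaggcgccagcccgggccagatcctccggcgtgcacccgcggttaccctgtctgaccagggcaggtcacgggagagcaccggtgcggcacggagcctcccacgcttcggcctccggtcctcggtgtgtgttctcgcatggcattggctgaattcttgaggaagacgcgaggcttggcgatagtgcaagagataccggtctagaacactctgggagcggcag
Dll1 window 2, chr17:15376883-15377182, minus strand: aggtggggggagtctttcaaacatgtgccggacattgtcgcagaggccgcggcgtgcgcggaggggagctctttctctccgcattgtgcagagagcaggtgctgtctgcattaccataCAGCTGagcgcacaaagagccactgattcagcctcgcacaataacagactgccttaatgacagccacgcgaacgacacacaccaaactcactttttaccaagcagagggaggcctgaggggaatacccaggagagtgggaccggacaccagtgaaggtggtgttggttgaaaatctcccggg
Hes6 window 1, chr1:91413989-91414288, minus strand: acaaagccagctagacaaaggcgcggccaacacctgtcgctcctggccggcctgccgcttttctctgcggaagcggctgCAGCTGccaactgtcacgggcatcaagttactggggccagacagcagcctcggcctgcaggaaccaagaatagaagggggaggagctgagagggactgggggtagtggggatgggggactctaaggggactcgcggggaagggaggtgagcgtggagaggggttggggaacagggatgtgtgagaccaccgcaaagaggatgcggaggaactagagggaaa
Hes6 window 2, chr1:91413173-91413472, minus strand: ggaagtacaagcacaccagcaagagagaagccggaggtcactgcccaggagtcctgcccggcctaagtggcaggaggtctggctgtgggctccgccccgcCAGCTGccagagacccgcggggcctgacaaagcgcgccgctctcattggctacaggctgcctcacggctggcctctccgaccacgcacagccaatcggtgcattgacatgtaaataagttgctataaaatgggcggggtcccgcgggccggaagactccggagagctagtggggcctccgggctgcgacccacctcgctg
Windows were found for 7 of the 10 genes; Hes1, Hey1 and Heyl have none here. Both strands were searched for TGGGAA, the core of the Rbpj site, for CAGCTG, and for the general E-box CANNTG, of which CAGCTG is one case. No window of the 7 genes held TGGGAA, which 25.6% of all 32851 windows held. CAGCTG, held by 16.3% of all windows, occurred once in both Hes6 windows, 165 and 144 bases before the start, once in window 2 of Dll1, 126 bases before it, and once in that of Jag1, 76 bases before it. CANNTG was in 72.3% of all windows and in none of the windows of Notch1, Notch2 and Notch3. These matches describe the letters of the windows only.

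The ligand gene Dll1 had the largest difference from 0 h of the members tested. Its intensity was 2760.7, 2476.2 and 973.5 in replicates 1, 2 and 3 at 0 h, 2701.8, 2039.9 and 1100.4 at 4 h, and 2428.2, 2472.7 and 945 at 12 h. It was 1489, 1464.9 and 664.2 at 24 h and 779.4, 689 and 417.2 at 48 h. Every 48 h array was below every 0 h array, although replicate 3 was the lowest of its hour throughout, and the 0, 4 and 12 h arrays lay in 1 range. Such lower values without overlap at 48 h were seen in 8.35% of all probe sets tested on chip A. Dll1 averaged 628.5 ± 188.5 at 48 h and 2070 ± 960.3 at 0 h (SD, n = 3 each). Over all arrays its log2 change at 48 h was -1.59 (SE 0.47), which did not pass the test (adjusted p = 0.11). Without the 0 h array of replicate 3 it passed (-2.05, adjusted p = 0.037). That fit keeps the low 48 h array of replicate 3, so its change mixes the hour with the replicate. With a replicate 3 term the change of -1.59 had an SE of 0.14 and Dll1 fell (adjusted p = 5e-06), as it did in replicates 1 and 2 alone (-1.79, adjusted p = 6.1e-06). Within each replicate the 48 h intensity was 0.282, 0.278 and 0.429 of its 0 h intensity. At 24 h Dll1 also fell with a replicate 3 term (-0.72, SE 0.14, adjusted p = 0.0031) and in replicates 1 and 2 (-0.81, adjusted p = 0.0025), but not over all arrays (adjusted p = 0.5). In RNA from whole cultures, fewer cells of a type and less RNA per cell cannot be told apart.

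The other ligand gene, Jag1, showed no such decline. Its probe set on chip B read 666.7, 730 and 1544.5 at 0 h, 884.5, 847.3 and 1832.7 at 4 h, and 716.1, 741 and 1973.8 at 12 h. It read 813.1, 692.4 and 1693.9 at 24 h and 879, 798.9 and 1870.7 at 48 h. Replicate 3 was the highest array at every hour, opposite to Dll1, and hours overlapped. The log2 change at 48 h was 0.25 (SE 0.46, adjusted p = 0.88 over all arrays; SE 0.13, adjusted p = 0.31 with a replicate 3 term). Its 2 probe sets on chip A were too dim to be tested, with intensities of 29.2 to 152.2, and only 1 of them was also higher in replicate 3 at every hour. The other read 107.7, 111.9 and 112.1 at 48 h, all above its 0 h values of 74.8, 90.5 and 85.3. Its 12 h arrays were also all above those of 0 h. Of all probe sets tested on chip A, 5.84% were higher at 12 h and 9.89% at 48 h without overlap.

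**Figure D1:**
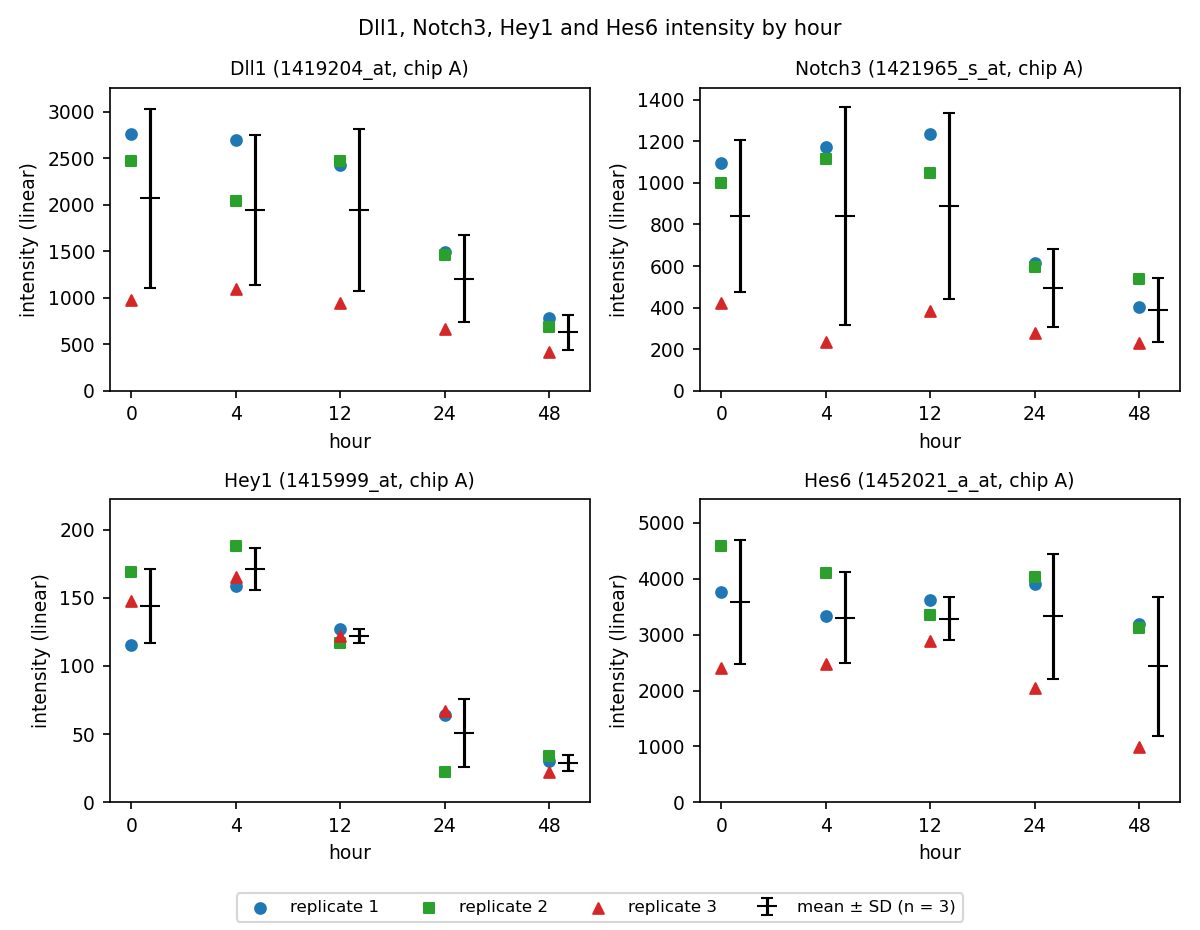
Intensity (linear) by hour of Dll1, Notch3, Hey1 and Hes6, 1 point per array with the mean ± SD of 3 replicates. Dll1 at 48 h (417.2 to 779.4) is below all 0 h arrays (973.5 to 2760.7), Hey1 is at 22.5 to 34.1 at 48 h, and replicate 3 is the lowest array of each hour in the panels of Dll1, Notch3 and Hes6.

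Among the receptor genes, Notch3 had the largest difference from 0 h. Notch3 is the receptor of vascular smooth muscle and pericytes and is also made by satellite cells. Its brighter probe set read 1095.4, 1000.6 and 421.7 at 0 h, 1170.7, 1115.3 and 235.7 at 4 h, and 1233.6, 1047.4 and 383.6 at 12 h. It read 613.1, 593.2 and 275.8 at 24 h and 401.8, 535.5 and 229.6 at 48 h. In every replicate the 24 and 48 h arrays were below the 0 h array, while across replicates the hours overlapped because replicate 3 was low throughout. Over all arrays the log2 change at 48 h was -1.02 (SE 0.58, adjusted p = 0.45). With a replicate 3 term Notch3 fell at 24 h (-0.70, SE 0.20, adjusted p = 0.029) and at 48 h (-1.02, SE 0.20, adjusted p = 0.004), and in replicates 1 and 2 alone it fell at both hours (-0.77, adjusted p = 0.0055, and -1.13, adjusted p = 0.00045). The dimmer Notch3 probe set averaged 105.1 ± 24.02 at 48 h and 177.6 ± 51.66 at 0 h (SD, n = 3 each), a log2 change of -0.61 (SE 0.25 with a replicate 3 term, adjusted p = 0.14). Both Notch3 probe sets differed between hours in the F test with a replicate 3 term (adjusted p = 0.0044 for the brighter and 0.026 for the dimmer).

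Among the markers of pericytes and smooth muscle, the 48 h means of Rgs5 and Acta2 were below those of 0 h, as for Notch3, that of Cspg4 was nearly equal, and those of the others were higher. Rgs5, a pericyte gene, read 543.2, 585.6 and 43.3 in replicates 1, 2 and 3 at 48 h, against 2519.3, 2450 and 118.3 at 0 h. Its log2 difference between replicate 3 and the others was -3.96. Of the 8 markers on that list 4 were lower and 2 (Cspg4 and Pdgfrb) higher in replicate 3 at every hour, and the list summed to 12490 to 18900 at 48 h, against 14880 to 22250 at 0 h. Acta2, the smooth muscle actin, averaged 9319 ± 1545 at 48 h and 11800 ± 1618 at 0 h, and Cspg4 averaged 268.9 ± 84.41 and 280.8 ± 160.1 at those hours (SD, n = 3 each). By the suffix of its name, the Acta2 probe set has probes that can match other transcripts as well. At 24 h the mean of Acta2 (13490) was above that of 0 h, unlike that of Notch3. The means of Des, Abcc9, Pdgfrb, Myh11 and Kcnj8 were higher at 48 h, for example 5545 ± 1575 at 48 h and 5042 ± 1052 at 0 h for Des, which is a skeletal muscle gene too (SD, n = 3 each). The part of these markers in the Notch3 values was not tested. The satellite cell genes Pax7 and Myf5 averaged 221.2 ± 66.31 and 170.3 ± 82.82 at 48 h, against 306.5 ± 81.85 and 370.4 ± 129.3 at 0 h (SD, n = 3 each). Both had their lowest mean at 24 h (157 and 129.2). On the same list Cdh15, Sdc4 and Vcam1 averaged 2501 ± 710.3, 1361 ± 298.8 and 847.6 ± 481.9 at 48 h. Their 0 h means were 2869 ± 532.2, 1415 ± 153.9 and 880.3 ± 265.3. Calcr, too dim to be tested, averaged 41.23 ± 27.84 at 48 h and 34.23 ± 6.673 at 0 h (SD, n = 3 each). The 6 satellite cell and myoblast markers on the arrays summed to 4534 to 5580 at 48 h, against 5389 to 6147 at 0 h.

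Notch1, a receptor made in many cell types, did not follow Notch3. Its brighter probe set read 437.5, 363.5 and 423.5 at 0 h, 381.7, 477 and 495.8 at 4 h, and 372.5, 449.6 and 705.7 at 12 h. It read 318.1, 385.3 and 599.5 at 24 h and 675.6, 418.4 and 512.2 at 48 h. The hours overlapped, and the log2 change at 48 h was 0.35 (SE 0.25, adjusted p = 0.58). The dimmer Notch1 probe set read 463.9, 309.9 and 355 at 48 h, against 222.8, 171.8 and 316.3 at 0 h. Its log2 change was 0.63 (SE 0.22, adjusted p = 0.19 over all arrays; adjusted p = 0.071 with a replicate 3 term), and it rose in replicates 1 and 2 alone (0.86, adjusted p = 0.033). The probe sets of Notch1 thus gave different calls in that fit.

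Notch2, a further receptor of satellite cells, was lowest at 24 h in replicates 1 and 2. Its brighter probe set read 553.7, 419.8 and 358.7 at 0 h, 586.5, 542.9 and 413.6 at 4 h, and 468.2, 408.7 and 436.9 at 12 h. It read 291.3, 262.6 and 362.1 at 24 h and 292.5, 376.8 and 464 at 48 h. Replicate 3 was nearly equal at 24 and 0 h. The log2 change at 24 h was -0.49 (SE 0.20, adjusted p = 0.23 over all arrays; adjusted p = 0.1 with a replicate 3 term), and Notch2 fell in replicates 1 and 2 alone (-0.74, adjusted p = 0.015). The other Notch2 probe set was not tested, at 12.8 to 119.9.

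The target gene Hey1, which encodes a repressor that Notch signalling switches on directly, was dim, and its single probe set was not among the brightest 60% of probe sets tested. It read 115.3, 169.2 and 147.4 at 0 h, 158.8, 188.2 and 165.5 at 4 h, and 127.2, 117.1 and 122.2 at 12 h. It read 64, 22.3 and 66.9 at 24 h and 30.5, 34.1 and 22.5 at 48 h. The 24 and 48 h arrays were all below the 0 h arrays. Among the probe sets tested on chip A, which leave Hey1 out, 11.8% were lower without overlap at 24 h and 8.35% at 48 h. For Hey1, replicate 3 was the highest of the 24 h arrays and the lowest of the 48 h arrays, and lay between the others at 0, 4 and 12 h. Hey1 averaged 29.03 ± 5.937 at 48 h and 144 ± 27.11 at 0 h (SD, n = 3 each), and the 48 h mean lies at about the 20th percentile of chip A. Whether it stood above background there is not known, since no detection calls were used. In a fit with no filter on dim probe sets Hey1 fell over all arrays at 24 h (log2 change -1.15, SE 0.24, adjusted p = 0.029) and at 48 h (-1.57, SE 0.24, adjusted p = 0.0061). That fit called 1.32% of all chip A probe sets at 24 h and 1.05% at 48 h. These changes are of log2(intensity + 29) and understate the change of so dim a probe set: within replicates, the 48 h intensity was 0.265, 0.202 and 0.153 of that at 0 h. In replicates 1 and 2 alone, with no filter, Hey1 fell too (-1.29, adjusted p = 0.032, at 24 h and -1.46, adjusted p = 0.021, at 48 h). The call at 48 h held in 23 of 25 alternatives to that fit, with adjusted p between 0.0017 and 0.069, and ended without the 0 h array of replicate 2 (adjusted p = 0.051) and with only the 0 and 48 h arrays in the fit (0.069). The call at 24 h held in 19 of 25 and ended without any 1 of the 3 arrays at 0 h (0.059, 0.16 and 0.067), without the 24 h array of replicate 1 (0.08) or 2 (0.15), and with only the 0 and 24 h arrays in the fit (0.18).

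Heyl, a relative of Hey1, had its highest values at 12 h, in replicates 1 and 2. Its brightest probe set read 225.8, 245.2 and 182.3 at 0 h, 169.6, 263.6 and 163.8 at 4 h, and 442.9, 400.7 and 170.8 at 12 h. It read 185.5, 256.1 and 140.2 at 24 h and 285, 195.8 and 106 at 48 h. Replicate 3 lacked the high 12 h value, and the log2 change at 12 h was 0.49 (adjusted p = 0.3 with a replicate 3 term; 0.77, adjusted p = 0.097, in replicates 1 and 2 alone). The remaining 2 probe sets of Heyl were not tested, at 13.8 to 136.2, and both had their highest mean at 12 h and their lowest at 48 h.

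Hes1, the classic target gene of the pathway, had overlapping values at all hours. It read 418.8, 615.5 and 508.1 at 0 h, 327.9, 374.5 and 490.5 at 4 h, and 392.4, 420 and 660.2 at 12 h. It read 668.4, 398.7 and 563.8 at 24 h and 466.9, 523.5 and 531.6 at 48 h. Its log2 change at 48 h was 0.00 (SE 0.23 over all arrays, adjusted p = 1), whereas that of Hey1 in the fit with no filter was -1.57. The difference between the changes of Hes1 and Hey1 was not tested.

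Hes6 encodes a factor that opposes Hes1 and promotes muscle differentiation. The dimmer of its 2 probe sets read 3762.3, 4592.8 and 2406.4 at 0 h, 3338, 4109.7 and 2475.4 at 4 h, and 3628.6, 3354.6 and 2879 at 12 h. It read 3915.6, 4032.4 and 2043.4 at 24 h and 3187.4, 3116.7 and 988.9 at 48 h. Replicate 3 was the lowest array at every hour and had the largest step, to 0.411 of its own 0 h intensity at 48 h, against 0.847 and 0.679 in replicates 1 and 2. The brighter one read 4246.3, 5027 and 3066.6 at 0 h, 3811.5, 4719 and 2740.4 at 4 h, and 4453.7, 3903 and 3422 at 12 h. It read 4346.7, 4807 and 2784.8 at 24 h and 3597.1, 3895.9 and 1735.4 at 48 h, again with replicate 3 lowest at every hour. Both fell at 48 h with a replicate 3 term (-0.68, adjusted p = 0.038, and -0.47, adjusted p = 0.049). Neither passed over all arrays (adjusted p = 0.46 and 0.51) or in replicates 1 and 2 alone (-0.40, adjusted p = 0.085, and -0.30, adjusted p = 0.21). By the suffix of their names, the brighter probe sets of Hes6 and Notch3 have probes that can match other transcripts as well.

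Numb, an inhibitor that promotes removal of the receptor, had overlapping values at 48 and 0 h. Its brighter probe set read 349.5, 368 and 325.6 at 0 h, 380.8, 436.1 and 352.6 at 4 h, and 357, 366.9 and 361.9 at 12 h. It read 335.6, 312.1 and 307.5 at 24 h and 411.9, 328.3 and 486.1 at 48 h. The log2 change was -0.12 at 24 h (SE 0.15, adjusted p = 0.76) and 0.20 at 48 h (SE 0.15, adjusted p = 0.59). A further probe set of Numb, at 5.2 to 41.3, was too dim to be tested.

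**Figure D2:**
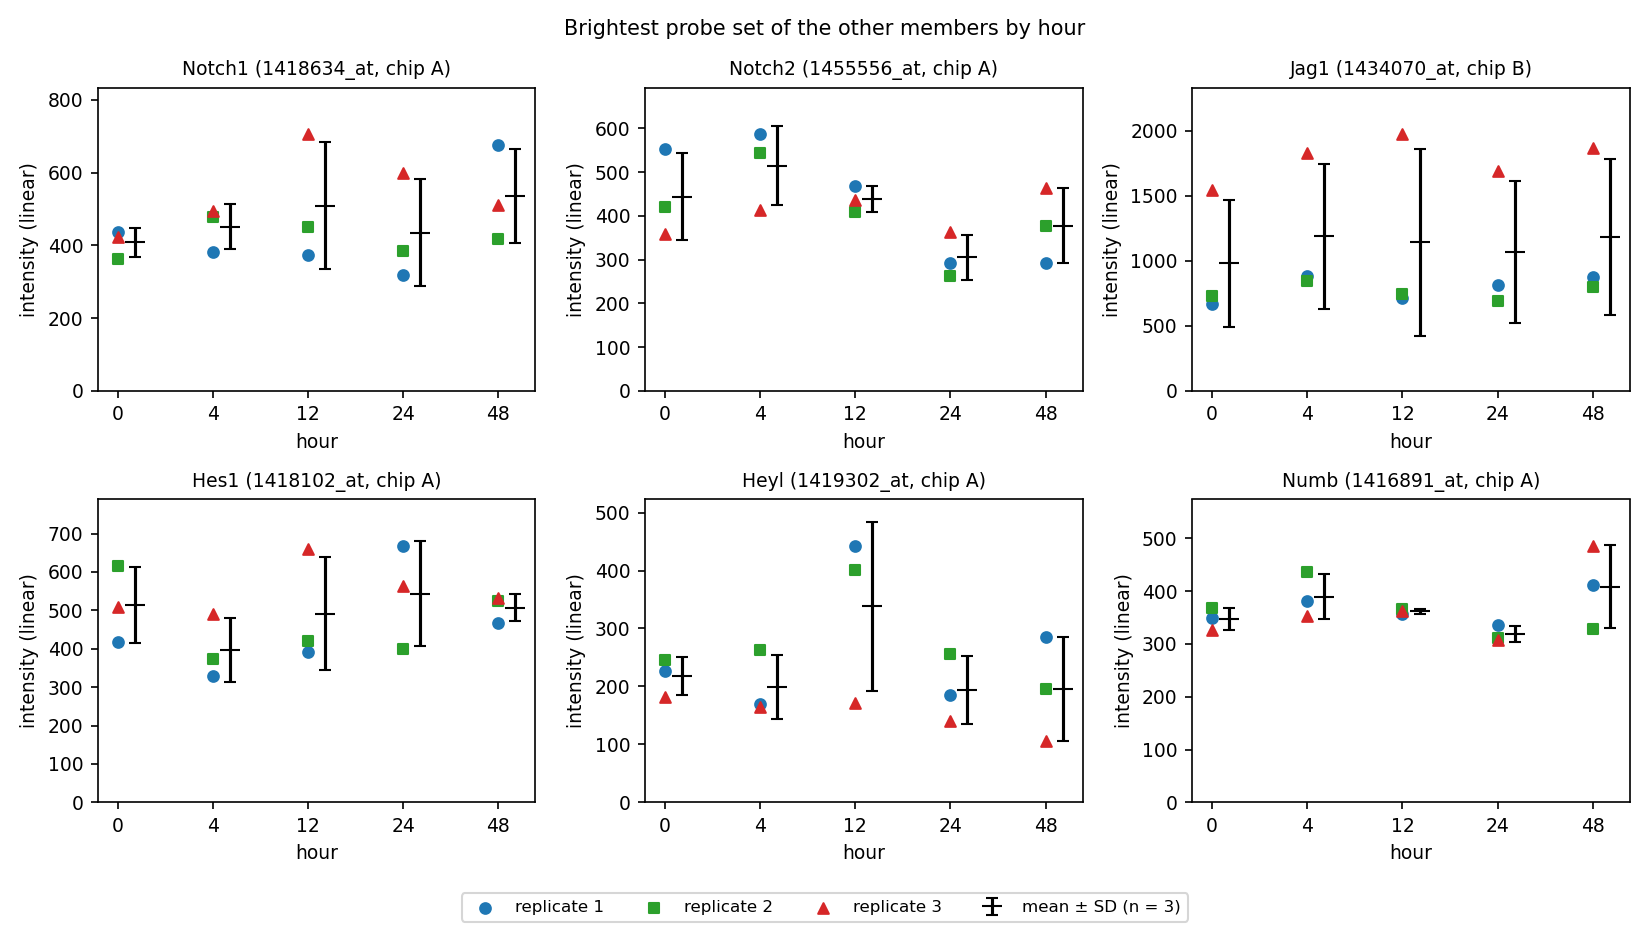
Intensity (linear) by hour of the brightest probe set of Notch1, Notch2, Jag1, Hes1, Heyl and Numb, 1 point per array with the mean ± SD of 3 replicates. Jag1 is highest in replicate 3 at every hour (1544.5 to 1973.8), and Heyl is highest at 12 h in replicates 1 and 2 (442.9 and 400.7).

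Counted over the members, 12 of the 19 probe sets, of 9 of the 10 genes, were bright enough to be tested. Over all arrays limma called 0 of the 12 at any hour. At an unadjusted p under 0.05 the counts were 0, 0, 1 and 2 at 4, 12, 24 and 48 h. The F test over all hours called 0 as well, with 3 at an unadjusted p under 0.05. Of all probe sets tested on chip A the same fit called 0% at 4 h, 0% at 12 h, 2.67% at 24 h, 2.15% at 48 h and 1.97% in the F test, and on chip B 0%, 0.00740%, 0.851%, 1.13% and 0.896% in the same order. The median log2 change of the 12 was 0.04, 0.04, -0.15 and -0.21 at 4, 12, 24 and 48 h, beside -0.02, -0.01, -0.05 and 0.01 for all tested on chip A. At 48 h 8 of the 12 had a mean below 0 h, and 49% of all tested on chip A did.

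With a replicate 3 term 0 of the 12 were called at 4 h and 0 at 12 h (0 and 1 at an unadjusted p under 0.05), where 0% and 1.05% of chip A and 0% and 0.326% of chip B were. At 24 h 2 of the 12 fell, Dll1 and Notch3, and 13.0% of chip A was called in either direction (7.04% lower). At 48 h 4 of the 12 fell, from Dll1, Notch3 and Hes6, and 9.79% of chip A was called (4.69% lower). The F test called 3 of the 12 (Dll1 and both of Notch3) and 14.0% of chip A (6.65% of chip B). Replicates 1 and 2 alone gave 3 of 12 lower at 24 h, where 8.48% of chip A was lower, and 2 lower and 1 higher at 48 h, where 12.4% was called. At 48 h the arrays of 1 of the 12 did not overlap with those at 0 h (Dll1, lower), beside 8.35% lower without overlap among all tested on chip A. The smallest two-sided exact permutation p for 3 arrays against 3 is 0.1.

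**Figure D3:**
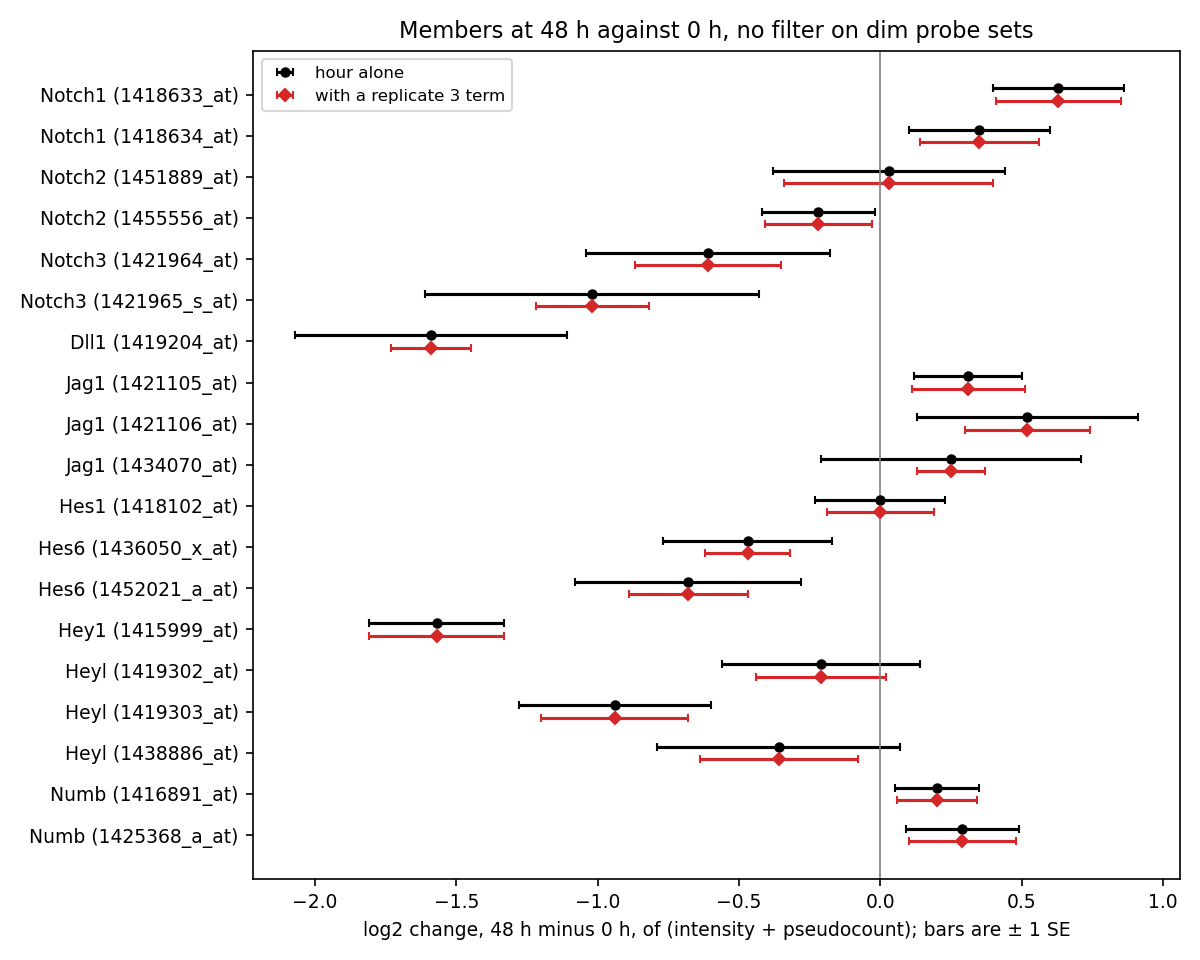
Log2 change (48 h minus 0 h) of all 19 member probe sets in the limma fit with no filter on dim probe sets, with hour alone (black) and with a replicate 3 term (red), bars showing 1 SE on each side. Dll1 (-1.59) and Hey1 (-1.57) lie farthest below 0; the term narrows the SE of Dll1 to 0.14, against 0.48 without it, and leaves that of Hey1 at 0.24.

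The members split in how replicate 3 differed from replicates 1 and 2, given here as a mean log2 difference over the 5 hours and without a test. Dll1 (-1.14), both Notch3 probe sets (-1.38 and -0.86), both of Hes6 (-0.84 and -0.66) and all 3 of Heyl (-0.67, -0.55 and -0.84) were lower in replicate 3 at 5 of 5 hours. Jag1 was higher at 5 of 5 hours in 2 of its 3 probe sets (1.15 and 0.81), and the third had a mean difference of -0.02. Hey1 (0.05), Hes1 (0.27), Numb (0.00 for its brighter probe set) and Notch1 (0.34 and 0.12) had smaller mean differences, and Notch2 had 0.00 and -0.42. The 3 genes lower at 48 h in the fit with a replicate 3 term were all lower in that replicate. Such a term narrows the SE of probe sets that differ in replicate 3, so this overlap is no separate result. Heyl was lower in replicate 3 too and was not called in that fit. Dll1, Notch3, Hes6 and Hey1 were each below 0 h at 48 h in all replicates. So was an untested probe set of Heyl (0.176, 0.658 and 0.257 of its 0 h intensity), but not the other Heyl probe sets. How many of all probe sets were below 0 h in every replicate was not counted.

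**Figure D4:**
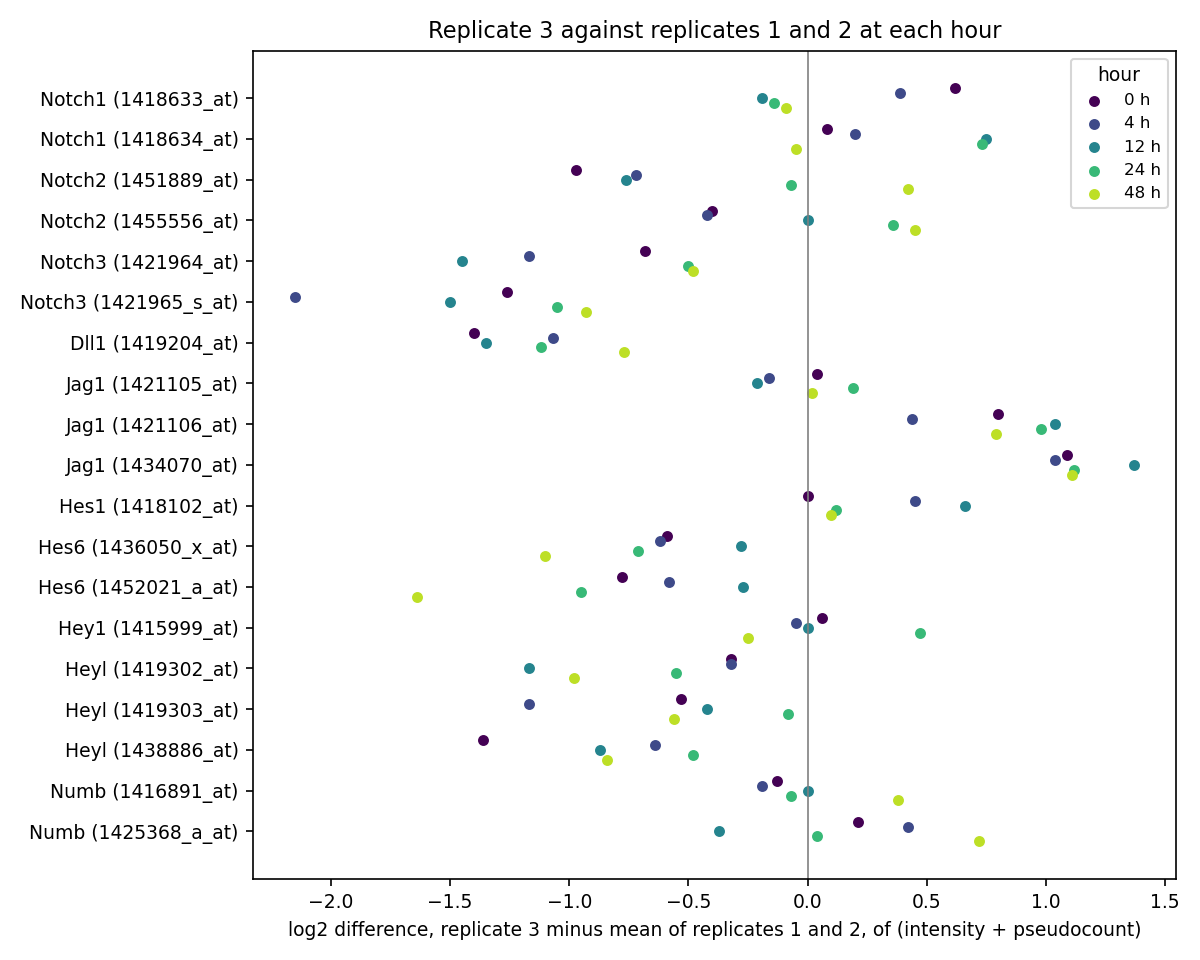
Log2 difference between replicate 3 and the mean of replicates 1 and 2 for each member probe set, 1 point per hour (5 hours). Points of Dll1, Notch3, Hes6 and Heyl are all below 0 and those of 2 Jag1 probe sets all above 0.

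A list of 49 further pathway genes (ligands, processing enzymes, regulators and transcription partners) had 45 on the arrays and 37 tested. Over all arrays limma called 0, 0, 1 and 0 of them at 4, 12, 24 and 48 h (1, 5, 6 and 7 at an unadjusted p under 0.05), with median log2 changes of -0.01, 0.03, 0.00 and -0.05 in that order. The same fit called 0%, 0%, 2.67% and 2.15% of all probe sets tested on chip A at those hours. On chip B it called 0.851% at 24 h. The 1 call among 37 genes is thus near the share of chip A. The gene called was Dlk2, a membrane protein with EGF repeats related to Notch ligands, read by a probe set whose probes can match other transcripts. It read 205.2, 131.1 and 189.1 at 24 h, against 277.7, 369.6 and 379.8 at 0 h, and fell by 0.87 on the log2 scale (SE 0.21, adjusted p = 0.036). The call ended with quantile normalization, with no filter, with a stricter filter, and without any 1 of the 0 h arrays, the 12 h array of replicate 2 or the 24 h array of replicate 1 or 2.

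With a replicate 3 term 5 of the 37 pathway genes were called at 24 h (4 lower, 1 higher) and 6 at 48 h (2 lower, 4 higher), where 13.0% and 9.79% of chip A and 4.12% and 5.25% of chip B were called. Rbpj, the DNA-binding partner of the receptor, read 1180.4, 1389.4 and 1351.3 at 48 h, against 1902.9, 1824.4 and 1706.1 at 0 h, without overlap. On chip A 8.35% of all probe sets tested were lower at 48 h without overlap. Rbpj fell at 48 h in the fit with a replicate 3 term (-0.46, adjusted p = 0.017) but not over all arrays (adjusted p = 0.083). Aph1a and Aph1b encode subunits of the enzyme that cleaves the receptor, and both fell at 24 h in that fit (-0.65, adjusted p = 0.0099, and -0.59, adjusted p = 0.049). Neurl1a, a ubiquitin ligase that acts on ligands, read 2268.5, 2942.5 and 1426.6 at 48 h, against 1200.8, 1233.2 and 1353.3 at 0 h, with most of the difference in replicates 1 and 2. It rose in that fit at 24 h (0.91, adjusted p = 0.0072) and 48 h (0.74, adjusted p = 0.03) but passed at neither hour over all arrays (adjusted p = 0.066 and 0.15). Dlk1, named after its values were seen, is an EGF repeat protein related to Dlk2. It read 1827.5, 1628.9 and 156.4 at 48 h, against 306.3, 330.4 and 155.9 at 0 h, so replicates 1 and 2 were higher at 48 h and replicate 3 was nearly equal. Its log2 change at 48 h was 1.56 over all arrays (SE 0.81, adjusted p = 0.39), and it rose in replicates 1 and 2 alone (2.34, adjusted p = 1.8e-06).

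**Figure D5:**
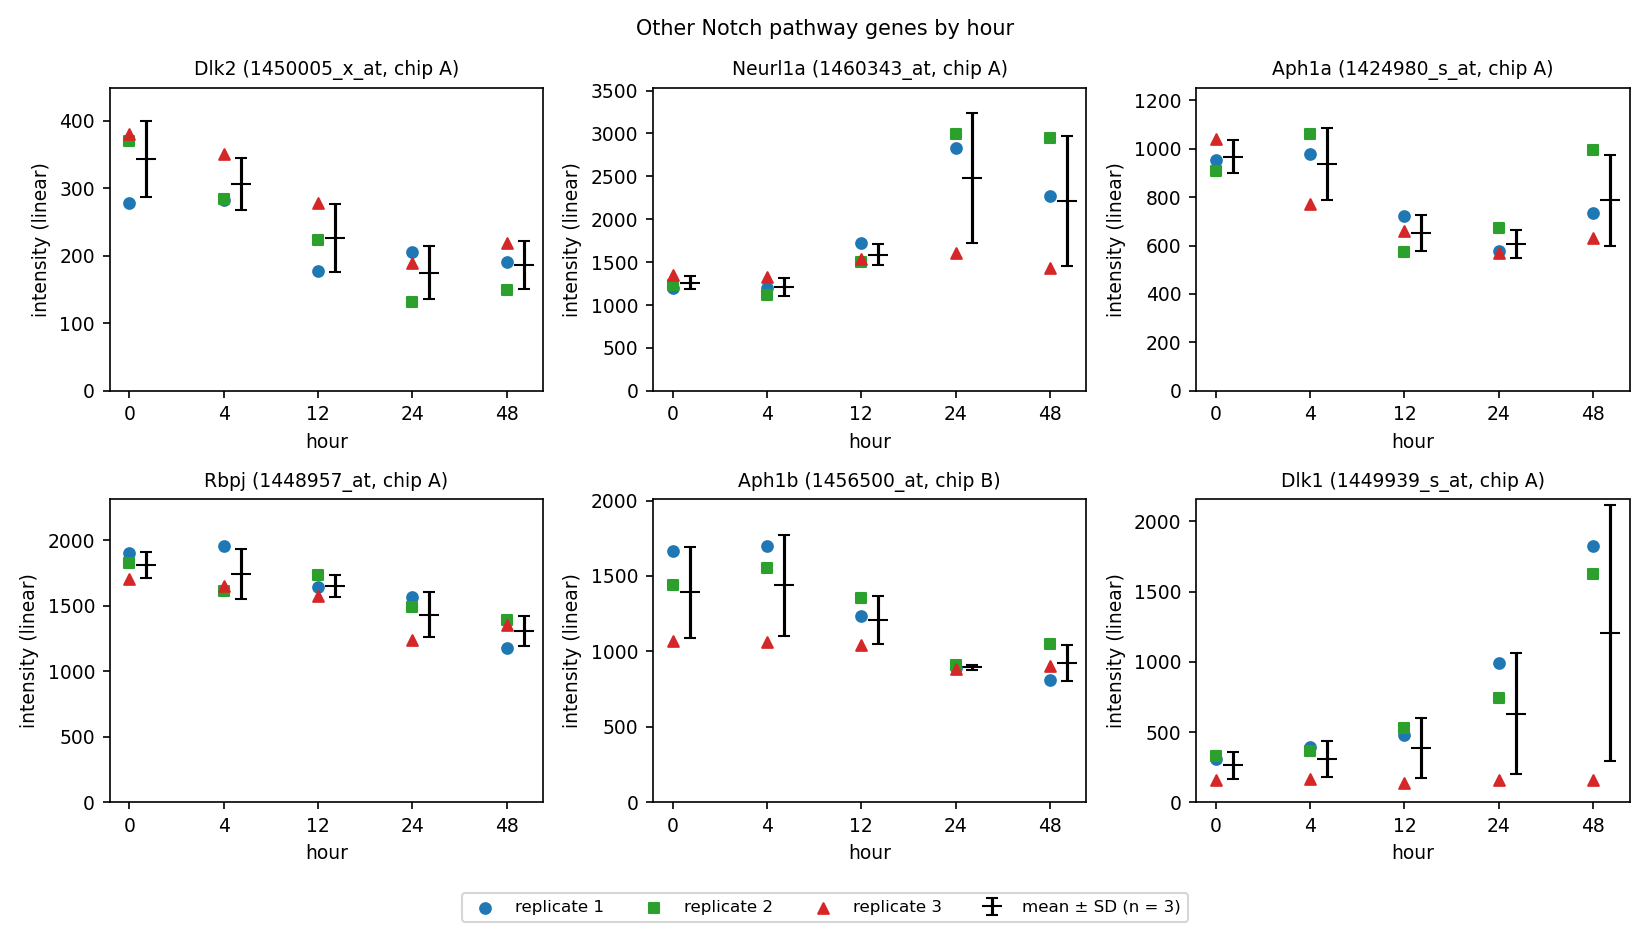
Intensity (linear) by hour of Dlk2, Neurl1a, Aph1a, Rbpj, Aph1b and Dlk1, 1 point per array with the mean ± SD of 3 replicates. Dlk1 reads 1827.5 and 1628.9 at 48 h in replicates 1 and 2 and 156.4 in replicate 3, and Rbpj at 48 h (1180.4 to 1389.4) is below all its 0 h arrays (1706.1 to 1902.9).

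The probe sets with a pattern most like that of 3 members were found by Pearson's r over 15 arrays, after the mean of each replicate was taken away. Arrays of an hour share their time, so r is a description. Nearest to Dll1 were Mycl, Tiam1 and Snai1 (r = 0.96 for each), with log2 changes at 48 h of -1.35, -1.43 and -1.03. Mycl is a Myc family factor and Snai1 a repressor of epithelial genes. Nearest to Notch2 were Kmt2e, Fam91a1 and Tpm1 (0.95, 0.94 and 0.94), and nearest to Numb were Idua, Tlr2 and Cntrl (0.91, 0.89 and 0.86).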

How the data were processed

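Total RNA of each culture was measured on Affymetrix A and B arrays, 15 of each. The authors deposited 1 linear intensity per probe set and array, already scaled; the software behind it is not given in the sources used here. Probe sets were named from the platform annotation, and control probe sets were left out. Each chip was analysed on its own: the 60% of probe sets with the highest mean were tested (13576 on A, 13507 on B) as log2(intensity + pseudocount), with the 20th percentile of the chip as pseudocount (29 on A, 54 on B). Hours were compared with 0 h in limma 3.58.1 under R 4.3.3 (eBayes with trend), with p-values adjusted by Benjamini-Hochberg over each chip and called under 0.05. The fit was tested on simulated data. Each choice was changed in turn: median centring or quantile normalization of the arrays, the pseudocount, the filter, a replicate block, a term for replicate 3, replicates 1 and 2 alone, only the hours compared, no trend, and leaving out each array. The fits that joined no filter with another alternative were added after seeing the data. Members and lists were chosen with earlier results of these data known. Values per array are given for the brightest probe set of each member and for those called; the pathway genes named were those called over all arrays and the next 4 by F test.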

Additional observations from a re-analysis of the deposited data

How the results depend on the processing

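The member calls depended on how replicate 3 was treated. Over all arrays 0 of the 12 tested member probe sets were called at 24 h, 48 h and in the F test. The counts at 24 h, 48 h and in the F test were 2, 4 and 3 with a replicate 3 term, 3, 3 and 4 in replicates 1 and 2 alone, and 1, 1 and 1 of 19 with no filter. With no filter they were 2, 3 and 4 with a replicate 3 term and 4, 3 and 5 in replicates 1 and 2. Chip A as a whole had 6.45%, 5.06% and 6.57% called with no filter and a replicate 3 term. With no filter in replicates 1 and 2 it had 7.70%, 6.45% and 8.57%. The filtered F test in replicates 1 and 2 alone called 17.5% of chip A. Leaving out single arrays gave 0 to 1 at 48 h, the 1 being Dll1 without the 0 h array of replicate 3, and 0 at the other hours. At 4 and 12 h every alternative gave 0. The replicate numbers did not pair the arrays by the rule used: it asks every pair to correlate above 0.1, and 9, 10 and 10 of 10 pairs of replicates 1, 2 and 3 did on chip A and 5, 8 and 10 of 10 on chip B. With a replicate block the member counts were 0 at 4 h, 0 at 12 h, 2 at 24 h and 3 at 48 h. Its F test called 3. Of chip A 12.2% was called at 24 h, 9.01% at 48 h and 12.1% in the F test. The pathway list had 4 called at 24 h and 6 at 48 h in that fit. No refitted log2 change of a called member changed sign, and of 370 refits each at 24 and 48 h, 6 and 2 lost a call, all of Hey1, and 11 and 15 gained one. Changes that were not called did change sign, in 14 and 23 of 345 refits each at 4 and 12 h. At 24 and 48 h 18 and 6 refits did so. The 48 h change of Hey1 with no filter ranged from -2.27 with a pseudocount of 1 to -0.84 with 4 times the pseudocount. The pathway list had 1 called at 24 h over all arrays, 0 to 3 without single arrays, 0 with quantile normalization, with no filter or with the stricter filter, and 7 in replicates 1 and 2 alone. At 48 h it had 0 over all arrays, 1 with quantile normalization, 7 in replicates 1 and 2 alone, and 0 without single arrays except for 3 without the 48 h array of replicate 3. The fit of replicates 1 and 2 alone also called many other probe sets. At 24 h it called 8.48% of chip A lower and 6.52% higher, and at 48 h 12.4% in either direction. Of chip B it called 5.15% at 24 h and 6.32% at 48 h. The causes were not tested. The 3 arrays per hour limit the precision, and no detection calls were used, so dim probe sets such as Hey1 have no known distance from background.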
